A study of Rattus norvegicus with 9 samples.

Results

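Histone modifier, reader and remodeler genes were taken from the deposited expression table by name. They are the entries named Kdm, Kmt, Hdac, Setd, Chd or Phf followed by a digit, or Smarca to Smarce, with a mean estimated count of at least 10 over the 9 libraries. All 88 entries of the table's 32623 with such a name met that minimum, so no named gene lay just outside it. Kdm4d lay just inside it, with a mean count of 15, and Hdac6 followed with a mean count of 65. All 88 were also among the 16284 genes that passed the filter on low counts and were tested. The name set the membership, so the label was checked against the Gene Ontology terms in the table. A histone, chromatin or nucleosome term was attached to 76 members and not to the other 12. From textbook function or family, 11 members were placed with the writers, 31 with the erasers, 14 with the readers and 24 with the remodelers. The deacetylases other than Hdac1l were placed with the erasers by family, whatever their main substrate or activity. This class therefore includes Hdac6, Hdac7 and Hdac10, described below. The 8 remaining members (Setd3, Setd4, Setd5, Setd6, Phf5a, Phf7, Phf24 and Hdac1l) have a name that does not settle such a role and were kept apart. The 12 without a term include the readers Phf3, Phf12, Phf21b, Phf23 and both Phf20l1 entries, and the remodelers Phf10 and Smarcal1. Setd3, Setd5, Setd6 and Hdac1l carry such a term although they were kept apart. Phf20l1 has 2 entries in the table, and Hdac1l is named as a relative of Hdac1, so the counting could have split reads between such entries and their levels are uncertain.

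Chromatin packs DNA around histone proteins, and chemical marks on the histone tails help to set which genes can be read. Writers such as the methyltransferases add these marks, erasers such as the histone deacetylases (Hdac) and lysine demethylases (Kdm) remove them, readers bind them through PHD fingers or Tudor domains, and remodelers use ATP to slide or evict nucleosomes. In neurons, class IIa deacetylases shuttle out of the nucleus with activity, and the BAF remodeling complex changes its subunits as progenitors become neurons.

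The cells were primary cortical neurons of wild-type Wistar rat embryos at embryonic day 16 to 18, grown on conductive glass. There were 3 unstimulated libraries (control), 3 from neurons under direct current (DCS, which the labels call DES) and 3 from neurons under alternating current (ACS), and polyadenylated RNA was sequenced. The labels give 3 µA for 20 min over 7 days, with 20 Hz written for both kinds of current although the study's methods give a frequency for ACS alone. Their sample fields give day 7 in vitro, whereas their growth protocol continues to day 14. Whether the 3 libraries per group derive from independent cultures is not stated, and the p-values therefore reflect the spread of these libraries alone, which may be technical. The cultures were mixed, and markers of other cells were present. Summed markers of neurons ran from 3400 to 3840 counts scaled to library size (CPM) in controls, those of astrocytes from 801 to 877, and those of progenitors and dividing cells from 975 to 1030. The endothelial and mural markers were near 0, with the only measured one of 4 (the other 3, Cldn5, Pecam1 and Rgs5, did not pass the filter) at no more than 0.899 CPM in any library.

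Each library held 49039412 to 68690760 estimated counts. Members took 1.09% to 1.12% of the counts of every library, so their pooled share differed little between groups. Differences were tested with edgeR's quasi-likelihood test over all 9 libraries, and p-values were adjusted by Benjamini-Hochberg over the 16284 genes. Below, "rose" and "fell" are used of genes with an adjusted p under 0.05, and fold changes are log2 differences in CPM. In bulk RNA, fewer cells of a type and less RNA per cell cannot be told apart.

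After ACS, 10 of the 88 members differed from control neurons. Hdac10, Hdac7, Phf1, Kmt5c, Smarcc2, Hdac5 and Smarcd1 rose, and Phf13, Phf23 and Phf20 fell. The 7 that rose are 7.95% of the members, where 2.83% of all genes tested rose, and the 3 that fell are 3.41%, where 1.33% of all genes fell. Members are expressed more highly than most genes, and among genes with a mean CPM of at least 10 the background was 4.19% higher and 1.97% lower, beside 8.86% and 3.8% of the 79 members at that level. In 13 members (14.8%) all ACS libraries lay above all controls, against 14% of all genes, and in 16 (18.2%) they lay below, against 13%. The median log2 change was -0.03 over the members and 0.00 over all genes. Most members moved little, with a median absolute change of 0.12. An unadjusted p under 0.05 was found for 33 of the 88 members, beside 3390 of the 16284 genes tested. Among those with a mean CPM of at least 10 it was found for 33 of 79 members, beside 2713 of 9867 genes. Hdac10, Hdac7 and Phf13 passed in every one of 18 alternative analyses. The 7 others lost the call in 5 to 13 of the 18, and the number of members called ranged from 3 to 17 as single libraries were left out, while the share of all genes called ranged from 0.831% to 8.64%. It was 3 without control 1, control 2 or any of the 3 ACS libraries, 5 without DCS 1, 4 without DCS 2 and 17 without control 3.

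**Figure D1:**
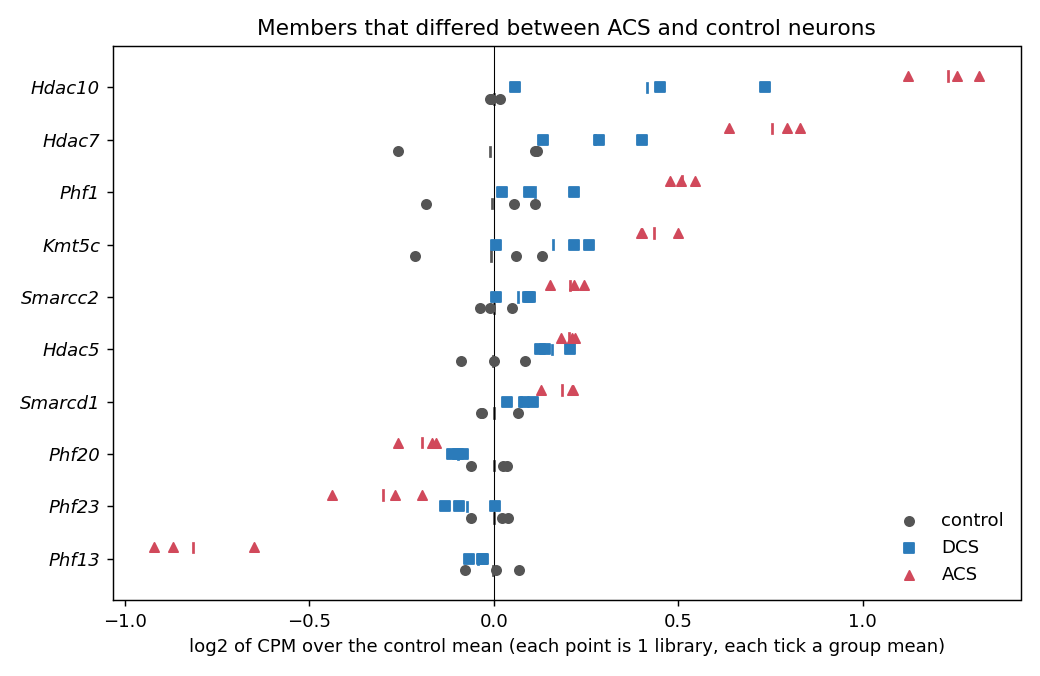
Members that differed between ACS and control neurons. The horizontal axis is the log2 ratio of each library's CPM to the mean of the 3 controls, each point is 1 library and each vertical tick a group mean. The ACS libraries of Hdac10 lie furthest to the right and those of Phf13 furthest to the left, and in all 10 genes no ACS library overlaps the controls.

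Among the writers, 1 of 11 rose after ACS and none fell by edgeR. That is 9.09%, where 2.83% of all genes rose and 4.19% of those with a mean CPM of at least 10. At an unadjusted p under 0.05, 2 writers were lower, beside 1632 of all 16284 genes, and DESeq2 called 1 lower. Kmt5c, a methyltransferase of histone H4 that is concentrated at compact chromatin, measured 28.55, 23.61 and 30.01 CPM in controls, 31.86, 32.76 and 27.52 after DCS, and 36.13, 36.17 and 38.73 after ACS. The ACS libraries were all above the other 6. The change against control was 0.43 ± 0.10 (SE, n = 3 per group; edgeR quasi-likelihood test, Benjamini-Hochberg adjusted p = 0.0424), and the call was lost in 7 of the 9 analyses that left out a library. Kmt5b, which acts on the same histone, showed 139 ± 4.41 CPM in controls and 139 ± 1.34 after ACS (SD, n = 3).

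The writer with the next smallest p was Kmt2b, a methyltransferase of histone H3 at promoters. It measured 107.5 ± 8.87 CPM in controls and 124.9 ± 4.71 after ACS, a difference of 0.22 that missed the threshold (edgeR adjusted p = 0.089). Its relative Kmt2a gave -0.18 (edgeR adjusted p = 0.0987). The 6 methyltransferases of the Kmt2 and Setd1 families had a median of 0.04, with none called by edgeR or limma. An unadjusted p under 0.05 was found for 2 of the 6, beside 3390 of all 16284 genes. By DESeq2 Kmt2b was higher and Kmt2a lower. Setd2, which methylates histone H3 along transcribed genes, was at 249 ± 14.4 CPM in controls, 227.5 ± 5.78 after DCS and 228.6 ± 14.2 after ACS. Setd7 was lower after ACS than after either other treatment, at 16.9 ± 1.32 CPM against 19.7 ± 1.56 in controls and 20.9 ± 0.906 after DCS, without passing the test in any comparison. Across the writers the median change was 0.02.

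Of the 31 erasers, 3 rose after ACS and none fell by edgeR. That is 9.68%, where 2.83% of all genes rose and 4.19% of those with a mean CPM of at least 10. The 3 are deacetylases of class II, placed with the erasers by family, and histone marks were not measured. The largest changes among called members were those of Hdac10 and Hdac7 upward and Phf13 downward. Hdac10, a mostly cytoplasmic deacetylase known to act on acetylated polyamines, measured 10.28, 10.25 and 10.45 CPM in controls, 17.2, 14.11 and 10.75 after DCS, and 22.49, 24.67 and 25.71 after ACS. The ACS libraries stood above all others and the controls lay close together. ACS neurons held 2.35 times the control level, a log2 change of 1.23 ± 0.15 (SE, n = 3 per group; 95% interval 0.90 to 1.56; edgeR adjusted p = 0.00287). Across the 18 alternatives the change was 1.07 to 1.29, with an edgeR, DESeq2 or limma adjusted p of at most 0.0218.

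Hdac7, a class IIa deacetylase that binds Mef2 transcription factors and has little enzyme activity of its own, measured 17.35, 13.37 and 17.31 CPM in controls, 21.15, 17.56 and 19.51 after DCS, and 24.91, 28.45 and 27.76 after ACS. Again every ACS library was above the other 6. The change against control was 0.76 ± 0.12 (SE; 95% interval 0.50 to 1.02; edgeR adjusted p = 0.009566), 1.69 times the control level. Leaving out single libraries moved it between 0.64 and 0.82.

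Hdac5, a more abundant class IIa deacetylase, measured 131.5, 139.8 and 148.1 CPM in controls and 158.5, 162 and 162.7 after ACS. The ACS and control groups did not overlap, but the change was small, at 0.20 ± 0.05 (SE; edgeR adjusted p = 0.0484). It kept its call in only 1 of the 9 analyses that left out a library. After DCS, Hdac5 was at 0.16 against control without passing, and ACS against DCS gave only 0.05 (edgeR adjusted p = 0.737). The other class IIa genes did not pass, with Hdac4 at -0.08 and Hdac9 at -0.13.

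None of the 4 class I deacetylases, the main nuclear enzymes of this kind, passed by edgeR or limma. At an unadjusted p under 0.05, 2 were lower, beside 1632 of all 16284 genes, and DESeq2 called 2 lower. Hdac2, the eraser of highest level, had 348.6, 338.6 and 317.9 CPM in controls and 311.7, 297.4 and 305.3 after ACS, which did not overlap (change -0.14, edgeR adjusted p = 0.114). Hdac8 gave -0.37 (edgeR adjusted p = 0.0873), Hdac1 -0.15 and Hdac3 0.05.

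The estimated counts of Hdac6, a deacetylase of tubulin, were 33, 157 and 0 in controls, 270, 0 and 114 after DCS and 0, 11 and 0 after ACS. Within the DCS group it alternated between 0 and 270 counts, which gives no usable fold change, and none is reported. Kdm4d had at most 28 counts in any library. These are the members with a mean FPKM (fragments scaled to exon length and library size) under 1.

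No demethylase among 20 passed after ACS by edgeR or limma, with 5 at an unadjusted p under 0.05 and 1 lower by DESeq2. Of all 16284 genes, 3390 had such an unadjusted p. Kdm1a, the flavin-dependent demethylase of the CoREST complex, was at 181 ± 2.52 CPM in controls and 168 ± 9 after ACS (-0.11, edgeR adjusted p = 0.228). Among the Kdm5 demethylases, which remove methyl groups from histone H3 at promoters, the X-linked Kdm5c measured 146 ± 5.06 CPM in controls, 148 ± 3.53 after DCS and 139 ± 3.09 after ACS. Its Y-linked relative Kdm5d was counted in all 9 libraries, between 15.46 and 23.55 CPM. Kdm5d per Kdm5c, as a ratio of FPKM, was 0.14 ± 0.0133 in controls, 0.123 ± 0.00127 after DCS and 0.154 ± 0.0345 after ACS (SD, n = 3), and the ACS and control ratios overlapped. The median change of all 31 erasers was -0.04.

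Of the 14 readers, 1 rose and 3 fell, which is 7.14% and 21.4%, where 2.83% and 1.33% of all genes did. Among genes with a mean CPM of at least 10, 4.19% rose and 1.97% fell. Of the 3 that fell, only Phf13 kept its call whichever library was left out. Phf23 and Phf20 each lost theirs in 7 of those 9 fits. No class was tested against another. By DESeq2, which called 10.1% of all genes, the readers called were again 4 of 14, beside 3 of 11 writers and 6 of 24 remodelers. Of the 31 erasers DESeq2 called 3 higher and 3 lower. Phf13, a PHD finger protein that binds methylated histone H3, measured 24.76, 27.39 and 26.26 CPM in controls, 25.56, 24.94 and 25.62 after DCS and 14.29, 13.8 and 16.64 after ACS. The DCS libraries lay within the control range, and all ACS libraries lay below both groups. ACS neurons held 0.571 of the control level, a log2 change of -0.81 ± 0.08 (SE, n = 3 per group; 95% interval -0.997 to -0.623; edgeR adjusted p = 0.00156). This was the smallest p of any member, and over the 18 alternatives the change lay between -0.90 and -0.71.

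The 3 members whose call after ACS held in every alternative are shown here by the 250 bases before their start site in RefSeq (GRCr8), read 5′ to 3′ on the gene's strand, so that a reader can compare promoters of genes that moved in opposite directions. Capitals mark the letters GGGCGG or, on the other strand, CCGCCC, the core of the GC box bound by Sp factors. The windows are chr5:167784078-167784327 for Phf13, chr7:122083847-122084096 for Hdac10 and chr7:130841018-130841267 for Hdac7, all on the minus strand.
Phf13: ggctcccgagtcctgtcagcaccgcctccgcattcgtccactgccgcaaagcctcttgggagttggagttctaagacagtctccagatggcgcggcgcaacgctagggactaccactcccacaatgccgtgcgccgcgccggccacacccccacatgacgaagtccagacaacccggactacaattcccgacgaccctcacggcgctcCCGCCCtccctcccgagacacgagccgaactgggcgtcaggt
Hdac10: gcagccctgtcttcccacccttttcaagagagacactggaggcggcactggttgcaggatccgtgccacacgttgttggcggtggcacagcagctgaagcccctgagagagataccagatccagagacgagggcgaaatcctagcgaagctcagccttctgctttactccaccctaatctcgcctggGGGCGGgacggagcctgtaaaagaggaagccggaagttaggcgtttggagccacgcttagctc
Hdac7: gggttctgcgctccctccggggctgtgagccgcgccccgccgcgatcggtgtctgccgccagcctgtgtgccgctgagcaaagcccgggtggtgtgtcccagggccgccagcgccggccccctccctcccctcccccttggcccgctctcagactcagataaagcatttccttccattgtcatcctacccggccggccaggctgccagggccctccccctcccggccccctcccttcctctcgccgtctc

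The Phf13 and Hdac10 windows each hold 1 match and the Hdac7 window none, although it has the highest GC content of the 3 at 72%, beside 65.2% in Phf13 and 58.8% in Hdac10. Promoters were found in RefSeq for 71 of the 87 member symbols. For every symbol only the first listed promoter was searched. GGGCGG on either strand was in 54 of them (76.1%), against 32.4% of all 27457 promoters. Members' promoters were also richer in GC, with a median of 62.4% and 19 CpG pairs in 250 bases against 52% and 6 in all promoters, so the share with a GC box cannot be read apart from base composition. Of the 9 called members with a promoter, 7 held the match, a share close to that of the members as a whole. The cyclic AMP response element TGACGTCA was in none of the 71, against 1.7% of all promoters, and the AP-1 motif TGANTCA was in 2 (2.82%), against 6.36%. Only Hdac5 among the called members held the E-box CACGTG, present in 5.79% of all promoters. These are matches of letters within the windows, both strands searched, and nothing was measured on binding.

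Phf23 and Phf20 fell less than Phf13. Phf23, another reader of methylated histone H3, measured 54.43, 53.78 and 50.77 CPM in controls and 44, 39.12 and 46.32 after ACS, a fall that separated the groups (-0.30 ± 0.07 SE, edgeR adjusted p = 0.0466). Phf20, a Tudor and PHD protein of the MOF acetyltransferase complex, measured 102.3, 101.7 and 95.68 CPM in controls and 89.58, 83.38 and 88.93 after ACS (-0.19 ± 0.05 SE, edgeR adjusted p = 0.0468). Each kept its call in 9 of the 18 alternatives and in 2 of the 9 analyses without a library.

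Phf1, an accessory subunit of Polycomb complex PRC2 that binds methylated histone H3 with its Tudor domain, was the reader that rose. It measured 12.34, 10.45 and 12.84 CPM in controls, 12.68, 12.06 and 13.82 after DCS and 17.32, 16.87 and 16.53 after ACS (0.51 ± 0.10 SE, edgeR adjusted p = 0.0251), and the ACS libraries stood above all others. Its relative Phf19 was at -0.26 and did not pass. Kmt2e, grouped with the readers because its SET domain is not known to methylate histones, had the highest reader level and the widest scatter, from 267.3 to 400.8 CPM in controls and from 259.9 to 286.7 after ACS. The median change of the 14 readers was -0.14, and leaving out a library moved it between -0.09 and -0.18.

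Remodelers had the highest median FPKM of the classes, and 2 of 24 rose after ACS, both subunits of the BAF complex. That is 8.33%, where 2.83% of all genes rose and 4.19% of those with a mean CPM of at least 10. Smarcc2, a scaffold subunit of the BAF complex also called BAF170, measured 415.8, 408.2 and 433.2 CPM in controls, 448.6, 446.5 and 421 after DCS and 496.4, 466 and 487.4 after ACS. The ACS libraries were above the other 6, and the change was 0.21 ± 0.04 (SE, edgeR adjusted p = 0.0298). Smarcd1, the BAF60a subunit, measured 173.5, 162 and 161.9 CPM in controls and 192, 192.4 and 181.2 after ACS (0.19 ± 0.04 SE, edgeR adjusted p = 0.0493), without overlap. Smarcc2 kept its call in 11 of the 18 alternatives and Smarcd1 in 6.

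The other BAF members did not pass by edgeR or limma, while DESeq2 also called Smarcd3. Smarcd3 gave 0.18 (edgeR adjusted p = 0.0864), Smarcd2 0.32, Smarca2 0.16 and the core ATPase Smarca4 0.09, while Smarcc1 was at -0.03 and Phf10 at -0.14. The ACS and control groups of Phf10 overlapped, and its entry shares positions with one on the opposite strand that held a mean of 1228 counts. Without stated use of strand in the counting, reads of the pair cannot be told apart. In all, 17 members overlap another entry, none of them among the 10 called.

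None of the 10 CHD ATPases and neither ISWI ATPase was called by edgeR after ACS. An unadjusted p under 0.05 was found for 3 and 2 of them, beside 3390 of all 16284 genes. DESeq2, which called 10.1% of all genes, called 1 CHD gene higher and both ISWI genes lower. Chd3, a NuRD remodeler and the member of highest level, stayed close between groups, at 1059 ± 32.2 CPM in controls, 1045 ± 16.4 after DCS and 1092 ± 26.5 after ACS. Its relatives of the same complex gave -0.13 (Chd4, edgeR adjusted p = 0.159) and 0.19 (Chd5, edgeR adjusted p = 0.122). Smarca5, the ISWI motor of several nucleosome-spacing complexes, measured 148 ± 12.8 CPM in controls, 130 ± 8.04 after DCS and 127.5 ± 2.65 after ACS (-0.21, edgeR adjusted p = 0.11).

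None of the 8 members outside the classes passed after ACS by edgeR or limma. At an unadjusted p under 0.05, 1 was higher, beside 1758 of all 16284 genes, and DESeq2 called 1 higher. The largest difference, named after its values were seen, was in Phf24, at 0.53 (edgeR adjusted p = 0.12). Phf5a, a component of the splicing machinery, gave -0.02.

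**Figure D2:**
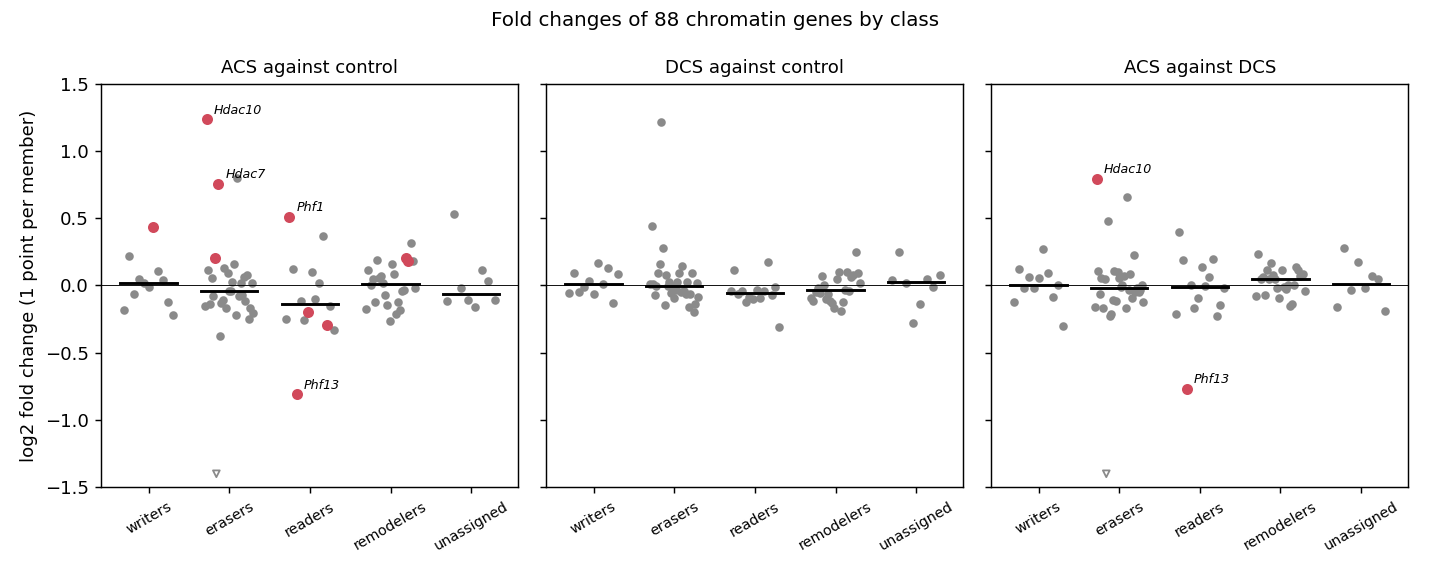
Log2 fold changes of the 88 members by class in the 3 comparisons. Each point is 1 member, in alphabetical order within its class, red points have an adjusted p under 0.05 and black bars are class medians. In the comparisons with ACS, an open triangle at the edge stands for Hdac6, whose value lies beyond the axis and rests on counts of 0 in several libraries. In DCS against control, Hdac6 is the highest point, within the axis. It also rests on counts of 0 in some libraries and allows no reading of a change. Red points are in all 4 named classes after ACS and in none after DCS.

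After DCS, no member differed from control by edgeR, against 0.0123% of all genes, and DESeq2 and limma also called none. An unadjusted p under 0.05 was found for 8 members, 4 higher and 4 lower, beside 1154 of all 16284 genes. The smallest adjusted p of a member was 0.692 by edgeR. The DCS libraries lay above all controls in 4 members (4.55%, against 5.59% of all genes) and below in 9 (10.2%, against 5.51%). Each member called after ACS had a DCS change of the same sign. These ran from 0.07 (Smarcc2) to 0.44 (Hdac10) for those that rose after ACS. For those that fell they ran from -0.04 (Phf13) to -0.10 (Phf20). This comparison uses the same 3 control libraries as the comparison of ACS, so the signs are not independent.

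The erasers of smallest p after DCS were Hdac5, at 153.9, 161.4 and 152.5 CPM and 0.16 above control (unadjusted p = 0.00919 by edgeR, with a 95% interval of 0.05 to 0.27), and Hdac10, at 0.44 (95% interval 0.11 to 0.77). In both, the 3 DCS libraries lay above the 3 controls. For Hdac10 the DCS libraries were spread from 10.75 to 17.2 CPM, so that the lowest was next to the highest control. Hdac7 was at 0.28 (95% interval 0.02 to 0.54). Phf13 was at -0.04 after DCS, with a 95% interval of -0.23 to 0.14.

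Of the other members named for a small p after DCS, 5 had values below control. Smarca5 was at -0.19, Phf6, an X-linked PHD finger protein, at -0.31, Setd2 at -0.13, Chd9 at -0.12 and Phf20 at -0.10. Setd1b, a methyltransferase of histone H3, was above control at 0.13. None reached an adjusted p under 0.05 by edgeR.

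Direct comparison of the stimulations called 2 members. Phf13 was lower after ACS than after DCS, at -0.77 ± 0.08 (SE; edgeR adjusted p = 0.00499), 0.588 of the DCS level, and 0.123% of all genes were lower in that comparison. Hdac10 was higher after ACS, at 0.79 ± 0.15 (SE; edgeR adjusted p = 0.0496), where 0.51% of all genes were higher. The call of Phf13 held in all 18 alternatives. That of Hdac10 held in 7, and when libraries were left out it held only without DCS 1 (0.97, edgeR adjusted p = 0.0221), with adjusted p from 0.0521 to 0.169 without each of the other 8.

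Other members fell short of the threshold between the stimulations by edgeR, while DESeq2, which called 3.99% of all genes here, also called Hdac7, Phf1 and Smarcc2 higher after ACS. Hdac7 gave 0.48 (edgeR adjusted p = 0.101) and Phf1 0.40 (edgeR adjusted p = 0.115), in each case with the 3 ACS libraries above the 3 DCS libraries. Setd7 gave -0.30 (edgeR adjusted p = 0.161), Kmt5c 0.27, Smarcc2 0.14 and Chd7, a CHD remodeler of developmental enhancers, 0.17. Over all members the ACS libraries lay above the DCS libraries in 17 (19.3%, against 11.2% of all genes) and below in 10 (11.4%, against 10.2%).

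Per length, the classes differed in level. The median FPKM over the 9 libraries was 32.1 for remodelers, 19.3 for readers, 13.7 for writers and 12.8 for erasers, against 7.85 for all genes tested. Chd3 (147), Hdac2 (142) and Smarcc2 (121) had the highest FPKM of all members, followed by Smarca4 (94.9). The highest writers were Kmt5a (64.85), Setd2 (26.8) and Kmt5b (21.7), the highest erasers after Hdac2 were Kdm1a (55.5) and Hdac5 (50.15), and the highest readers were Kmt2e (39.9), Phf20 (29.8) and Phf23 (28). The 3 members with the most stable calls were of modest level, with Hdac10 at 7.32, Phf13 at 6.73 and Hdac7 at 6.12, between the 44.4 and 48.4 percentiles of all genes tested.

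**Figure D3:**
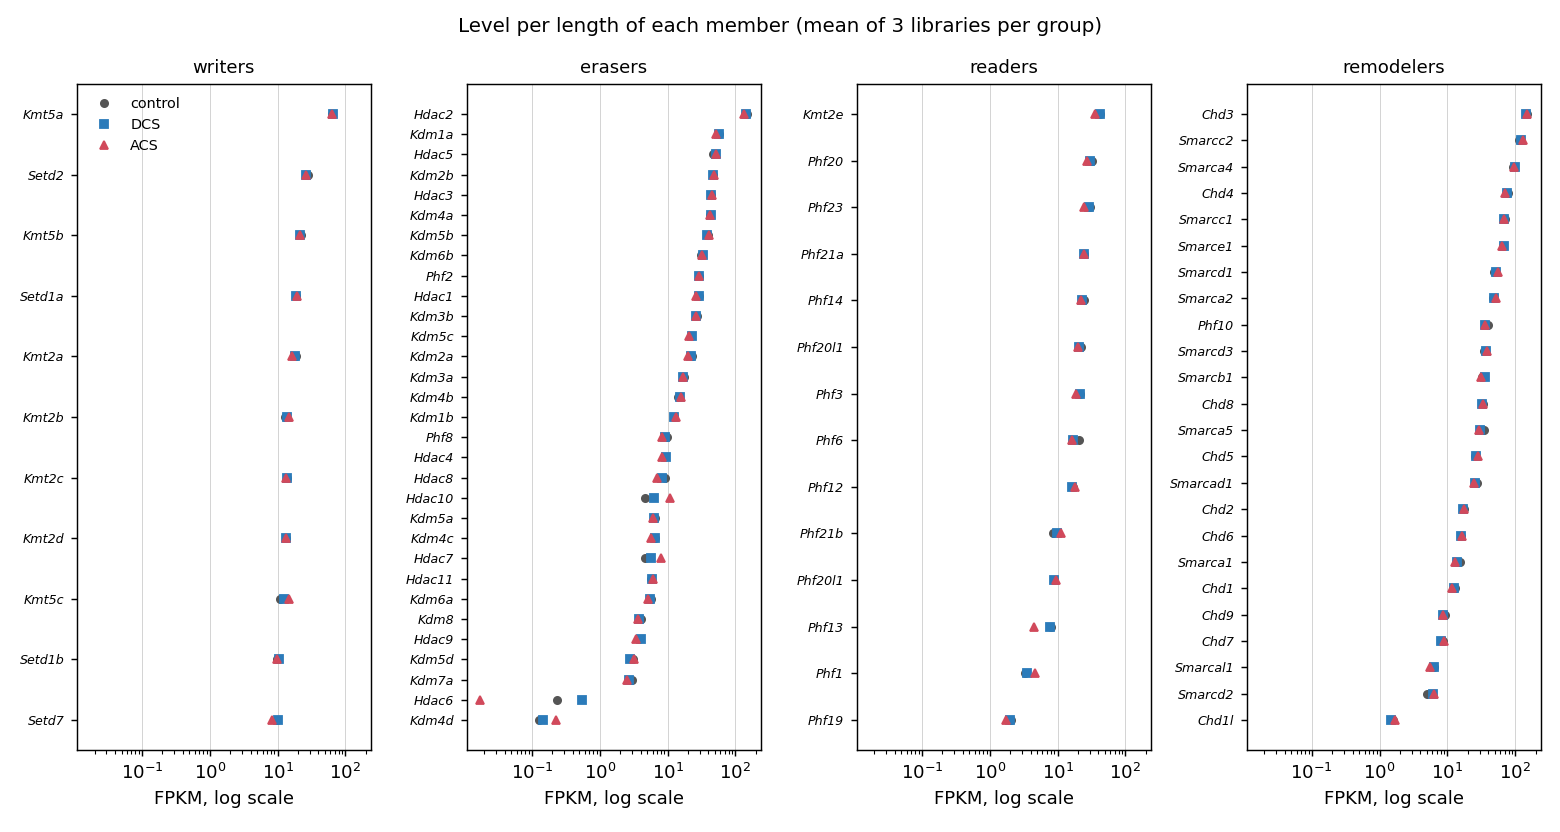
FPKM of each member of the 4 classes, on a log scale, as the mean of 3 libraries per group. The group symbols overlap for most members, and Hdac10, Hdac7 and Phf13 are among those where the ACS symbol stands apart. The separated symbols of Hdac6 and Kdm4d rest on few counts.

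Related genes were compared as ratios of FPKM within a library, for 9 pairs chosen after earlier results were known. Hdac7 per Hdac9 was 1.25 ± 0.206 in controls, 1.45 ± 0.225 after DCS and 2.32 ± 0.228 after ACS (SD, n = 3). Hdac5 per Hdac4 was 5.29 ± 0.282, 5.52 ± 0.227 and 6.4 ± 0.019 in the same order. In both pairs of class IIa deacetylases the ACS ratios lay above all controls. The BAF scaffolds Smarcc2 and Smarcc1 gave 1.63 ± 0.115, 1.75 ± 0.069 and 1.92 ± 0.0399, Kmt5c per Kmt5b gave 0.497 ± 0.0701, 0.584 ± 0.076 and 0.675 ± 0.0325, and Phf1 per Phf19 gave 1.61 ± 0.348, 1.81 ± 0.0664 and 2.69 ± 0.109. The ratios of Smarca2 to Smarca4, Smarcd1 to Smarcd3, Hdac2 to Hdac1 and Kdm5d to Kdm5c overlapped between ACS and control. The pairs were chosen with results in view, so the ratios are a description and were not tested.

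**Figure D4:**
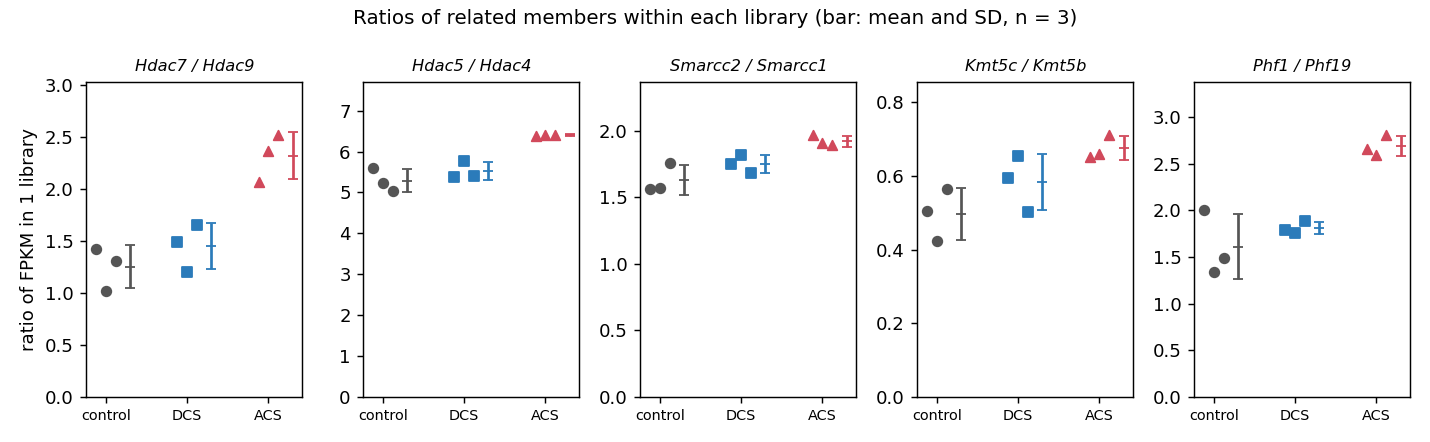
Ratio of FPKM between related members within each library, with 1 point per library and the mean and SD of 3 libraries per group beside them. In these 5 pairs, selected from 9 because the groups separate, every ACS ratio lies above every control ratio.

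Chromatin genes outside the name rule gave the wider pathway. Of 145 tested, 4 rose and 2 fell after ACS, which is 2.76% and 1.38%, close to the 2.83% and 1.33% of all genes. Those that rose were Dot1l, a methyltransferase of histone H3 within transcribed genes (0.48), Pcgf6 of a Polycomb complex (0.39), and the BAF subunits Bcl11a (0.26) and Dpf2 (0.23). Those that fell were Hat1, the acetyltransferase of newly made histones (-0.34), and Rbbp4, a histone chaperone shared by several complexes (-0.17). After DCS edgeR called none of the 145, and DESeq2 and limma also called 0. At an unadjusted p under 0.05 there were 11 of the 145, beside 1154 of all 16284 genes. L3mbtl3, a reader of methylated lysine, was higher after ACS than after DCS (0.27, edgeR adjusted p = 0.0431). It was the only 1 of the 145 called between the stimulations by edgeR, or 0.69%, close to the 0.51% of all genes that were higher.

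With these genes added, the BAF complex had 28 measured subunits, of which Smarcc2, Smarcd1, Dpf2 and Bcl11a rose after ACS and none fell by edgeR, DESeq2 or limma. The 4 are 14.3% of the subunits, where 2.83% of all genes rose and 4.19% of those with a mean CPM of at least 10. The list of subunits was chosen with earlier results of these data known, and its share was not tested. With single libraries left out, Smarcc2 kept its call in 3 fits and lost it in 6. Smarcd1 kept its call in 1 such fit and lost it in 8. DESeq2 called 8 of the 28 subunits higher and limma 3. Of all genes, DESeq2 called 10.1% in either direction and limma 5.08% to 5.21%. The median of the 28 was 0.10, and 3 subunits were lower at an unadjusted p under 0.05, beside 1632 of all 16284 genes. Bcl11a measured 144.7, 151.4 and 159.2 CPM in controls and 190.8, 185.1 and 169.5 after ACS, and Dpf2 measured 87.62, 86.27 and 89.84 in controls and 104.7, 101.1 and 103.7 after ACS. Neither pair of groups overlapped.

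Some cell type markers also moved with ACS, while none of the 6 markers each of interneurons, the oligodendrocyte lineage and microglia was called. Of 8 markers of progenitors and dividing cells, 3 (Hes5, Mki67 and Vim) fell, and the summed level was 975 to 1030 CPM in controls, 935 to 977 after DCS and 848 to 927 after ACS. Of 6 neuronal markers Rbfox3 rose, at 51.3 ± 2.58 CPM in controls and 69 ± 4.15 after ACS, while their sum overlapped between controls (3400 to 3840) and ACS (3490 to 3700). Of 6 astrocyte markers only Gfap rose (0.25, edgeR adjusted p = 0.0281), and their sum ran from 618 to 956 CPM after ACS. The low end goes with Slc1a3 in ACS 1, at 224 CPM against 475.6 in ACS 2 and 517.9 in ACS 3. The part of these shifts in the changes of the 10 members was not tested.

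By position as the table gives it, without a named genome build, 4 of the 7 members that rose lie on chromosome 7. They are Smarcc2 (chr7:2875909-2904453, plus strand), Hdac10 (chr7:130102347-130107437, minus), Hdac7 (chr7:139281187-139318455, minus) and Smarcd1 (chr7:141355994-141366732, plus). Chromosome 7 carries 9 members in all, and 4.92% of its 1016 tested genes rose. Phf13 lies at chr5:169161412-169167831 on the minus strand. Of the 28 tested genes within 20000 bases of the 10 called members, 1 was called, G6pc3 beside Hdac5 (0.37, edgeR adjusted p = 0.0435). The nearest neighbor of Hdac10, Tubgcp6 at 489 bases, gave 0.07, that of Phf13, Thap3 at 425 bases, gave -0.08, and that of Hdac7, Slc48a1 at 1688 bases, gave 0.16.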

How the data were processed

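RNA of 9 libraries (control, DCS and ACS, 3 each, grouped by their labels) was analysed. The authors trimmed reads, aligned them with HISAT2 (2.0.4 per the labels) and quantified genes with StringTie (1.3.4d). The authors computed the deposited FPKM values, and the estimated counts beside them were deposited as whole numbers. How many counts a fragment adds is not given in the sources used here. At 4 counts per fragment, the value behind the alternative of counts divided by 4, the libraries would hold 12259853 to 17172690 fragments. Low counts such as those of Kdm4d would then stand for fewer fragments. The genome build of the table is not named, and strand was not stated for the counting.

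Counts were scaled by TMM and kept by filterByExpr (minimum count 10, total 15), which removed 16339 of 32623 genes. edgeR 4.0.16 fitted all 9 libraries on the counts as deposited. The code was first run on simulated counts with the same spread for every gene, a check of the code that does not bear on single calls. Alternatives were DESeq2 1.42.0, limma 3.58.1 on log2(FPKM + 1) and log2(FPKM + 0.1), counts divided by 4, and other scaling, filters and libraries. The members and lists were chosen with earlier results of these data known. Named are all called members, the 3 of highest FPKM per class, the 2 of smallest p per class and comparison, Kdm5c and Kdm5d, and called genes of the other chromatin lists. Others were named after their values were seen.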

Additional observations from a re-analysis of the deposited data

Results flagged for a closer look

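The difference between the responses to ACS and DCS was tested directly, and 2 members passed. Phf13 was lower after ACS than after DCS by a log2 change of -0.767 (edgeR adjusted p = 0.00499), lower in 3 of 3 ACS libraries than in any DCS library. Hdac10 was higher after ACS than after DCS by 0.794 (edgeR adjusted p = 0.0496), higher in 3 of 3 ACS libraries. The Hdac10 call was lost in 11 of 18 alternatives. No group has enough libraries to test for a single outlying sample.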

How the results depend on the processing

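Directions of the 10 called members were kept in all alternatives. The members called after ACS against control numbered 10 in the analysis reported (4.16% of all genes called), 20 with DESeq2 (10.1%), 5 with the 6 libraries of the comparison alone (3.03%), and 3 to 17 when a library was left out (0.831% to 8.64%). Between ACS and DCS, 2 (0.633% of all genes) became 5 with DESeq2 (3.99%), 1 with limma on log2(FPKM + 0.1) (0.621%), 1 with 6 libraries (0.535%), and 1 to 2 when a library was left out (0.163% to 1.11%). With the replicate number as a block the counts were 6 after ACS (2.92%) and 1 between ACS and DCS (0.362%). After ACS that block lost the calls of Hdac5, Kmt5c, Phf20, Phf23 and Smarcc2 and added Kmt2a. The deviations of same-numbered libraries from their group means correlated at only -0.0207 to 0.137, so the numbers were not taken as pairs. A library was nonetheless most like its own number in 14 of 18 comparisons with another group, each with 3 candidates. Pairing by number therefore remains possible. Class medians kept within the replicate spread except as follows. With limma on log2(FPKM + 1) and log2(FPKM + 0.1), the ACS against DCS median was -0.0403 and -0.0414 for erasers and 0.023 and 0.0248 for remodelers. Leaving out a library moved the median over erasers (ACS against control) from -0.0723 to -0.0286, readers (ACS against control) from -0.1791 to -0.0924, erasers (DCS against control) from -0.0255 to 0.0097, erasers (ACS against DCS) from -0.0372 to -0.0055, readers (ACS against DCS) from -0.0518 to 0.0291, and remodelers (ACS against DCS) from 0.0249 to 0.051. The causes were not tested. Hdac6, with counts from 0 to 270, and Kdm4d, with at most 28, allow no reading of a change, and with 3 libraries a group small changes are easily missed.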
